A study of Mus musculus with 8 samples.

Results

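The genes described here are 10 transcription regulators of the pachytene programme of male germ cells: Mybl1, Tcfl5, Taf4b, Ovol1, Zfp541, Kctd19, Sox30, Rfx2, Crem and Brdt. They were taken by name, and each was matched to 1 of the 21900 protein-coding genes of the RefSeq annotation of GRCm38.p6, the assembly behind mm10. For each gene the regions within 1 kb of either gene end and in the gene span were collected. The study mapped H2A.Z, a variant of histone H2A, by chromatin immunoprecipitation and sequencing in testis cells of mice at postnatal day 14. Testes labelled Znhit1-CKO, a conditional knockout of Znhit1, were set against testes labelled Control, with 2 H2A.Z immunoprecipitates and 2 inputs per genotype. The labels give no strain, no Cre driver and no alleles for either group. The question posed was how occupancy by H2A.Z in germ cells depends on ZNHIT1, which belongs to SRCAP, the complex that puts H2A.Z into nucleosomes.

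H2A.Z marks nucleosomes beside the transcription start of many genes, active and poised. In male meiosis, spermatocytes at the pachytene stage switch on a large set of genes, many of them used only later in spermatids. MYBL1 (A-MYB) is the central activator of that switch and also drives the precursors of pachytene piRNAs, and TCFL5 is a basic helix-loop-helix factor that acts with it. ZFP541 and KCTD19 form a complex with histone deacetylases in late prophase, SOX30, RFX2 and CREM activate genes of round spermatids, and BRDT is a testis bromodomain protein that binds acetylated histones.

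The data are 1 list of peaks per genotype, with 31156 Znhit1-CKO peaks and 48752 Control peaks, and 1 list of 24367 differential regions. Each entry is a chromosome, a start and an end, so the only size of a peak is its width, and no value carries a replicate error. The differential regions have no sign, and 24362 of them are exactly 400 bp wide. Depth per library is not given in the files, and a region can miss a list when its signal lies just under the threshold. Whole testis cells were used, so fewer cells of a type and less H2A.Z per cell cannot be told apart. Of the marker genes looked up, Control boundary peaks lay at 3 of 3 germ cell genes, 3 of 4 Sertoli cell genes, 2 of 2 peritubular genes and 0 of 3 Leydig cell genes, against 67.6% of protein-coding genes. A Znhit1-CKO peak overlapped a Control boundary peak of each of these genes but Sycp3, a germ cell gene. Dazl, another germ cell gene, had 2 Control boundary peaks and 1 overlapping Znhit1-CKO peak. The median share of Control boundary-peak length under a Znhit1-CKO peak was 24.5% for the germ cell, 49.2% for the Sertoli cell and 50.4% for the peritubular genes, against 78.6% over all genes. These medians rest on few genes that differ widely. The germ cell genes ran from 0% (Sycp3) to 72.7% (Dazl) and the Sertoli cell genes from 16.8% (Wt1) to 75.8% (Amh). The peritubular genes were at 42.7% (Acta2) and 58.1% (Myh11). The part of cell makeup in the results was not tested. A peak is not expression, so these do not identify the cells. No test against the spread between animals was possible, and every comparison below is a description.

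All 10 regulators had an H2A.Z peak at a gene end in Control testes, where 67.6% of protein-coding genes had one. A Znhit1-CKO peak lay within 1 kb of a gene end at 8 of the 10, against 60.4% of protein-coding genes. Each regulator had its Control peak at 1 end only. Of all protein-coding genes longer than 10 kb, with or without a Control peak, 71.1% had one at 1 end only. The share among genes with a Control boundary peak, as all 10 regulators have, was not computed. In Znhit1-CKO testes a peak overlapped the Control boundary peak at 9 of the 10, and Brdt alone had none; a boundary peak is called lost below where no Znhit1-CKO peak overlapped it, and kept where one did. Across the 14815 genes with a Control boundary peak, 11.0% had no overlapping Znhit1-CKO peak, so 1 of 10 is near the background. The 2 without a Znhit1-CKO peak within 1 kb of the gene end were Brdt and Sox30, and 11.5% of genes with a Control boundary peak lacked one by that rule. The Sox30 peak missed that window by its position: it began 1024 bp from the gene end and still overlapped the Control peak. Differential regions lay on the Control boundary peak of 7 regulators, against 65.8% of genes, and within 1 kb of a gene end at 6, against 62.8%. Tcfl5, Ovol1 and Crem had no differential region anywhere in the span plus 1 kb, where 71.7% of genes had one. RefSeq starts of transcription, which can lie away from the outermost gene end, were given for 5 of the 10. A Control peak lay within 1 kb of that start at 4 of the 5, against 67.7% of genes with a start given. Of these 4, Brdt lacked a Znhit1-CKO peak there, against 9.68% of genes, and Sox30, Rfx2 and Brdt had a differential region, against 64.2%.

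**Figure D1:**
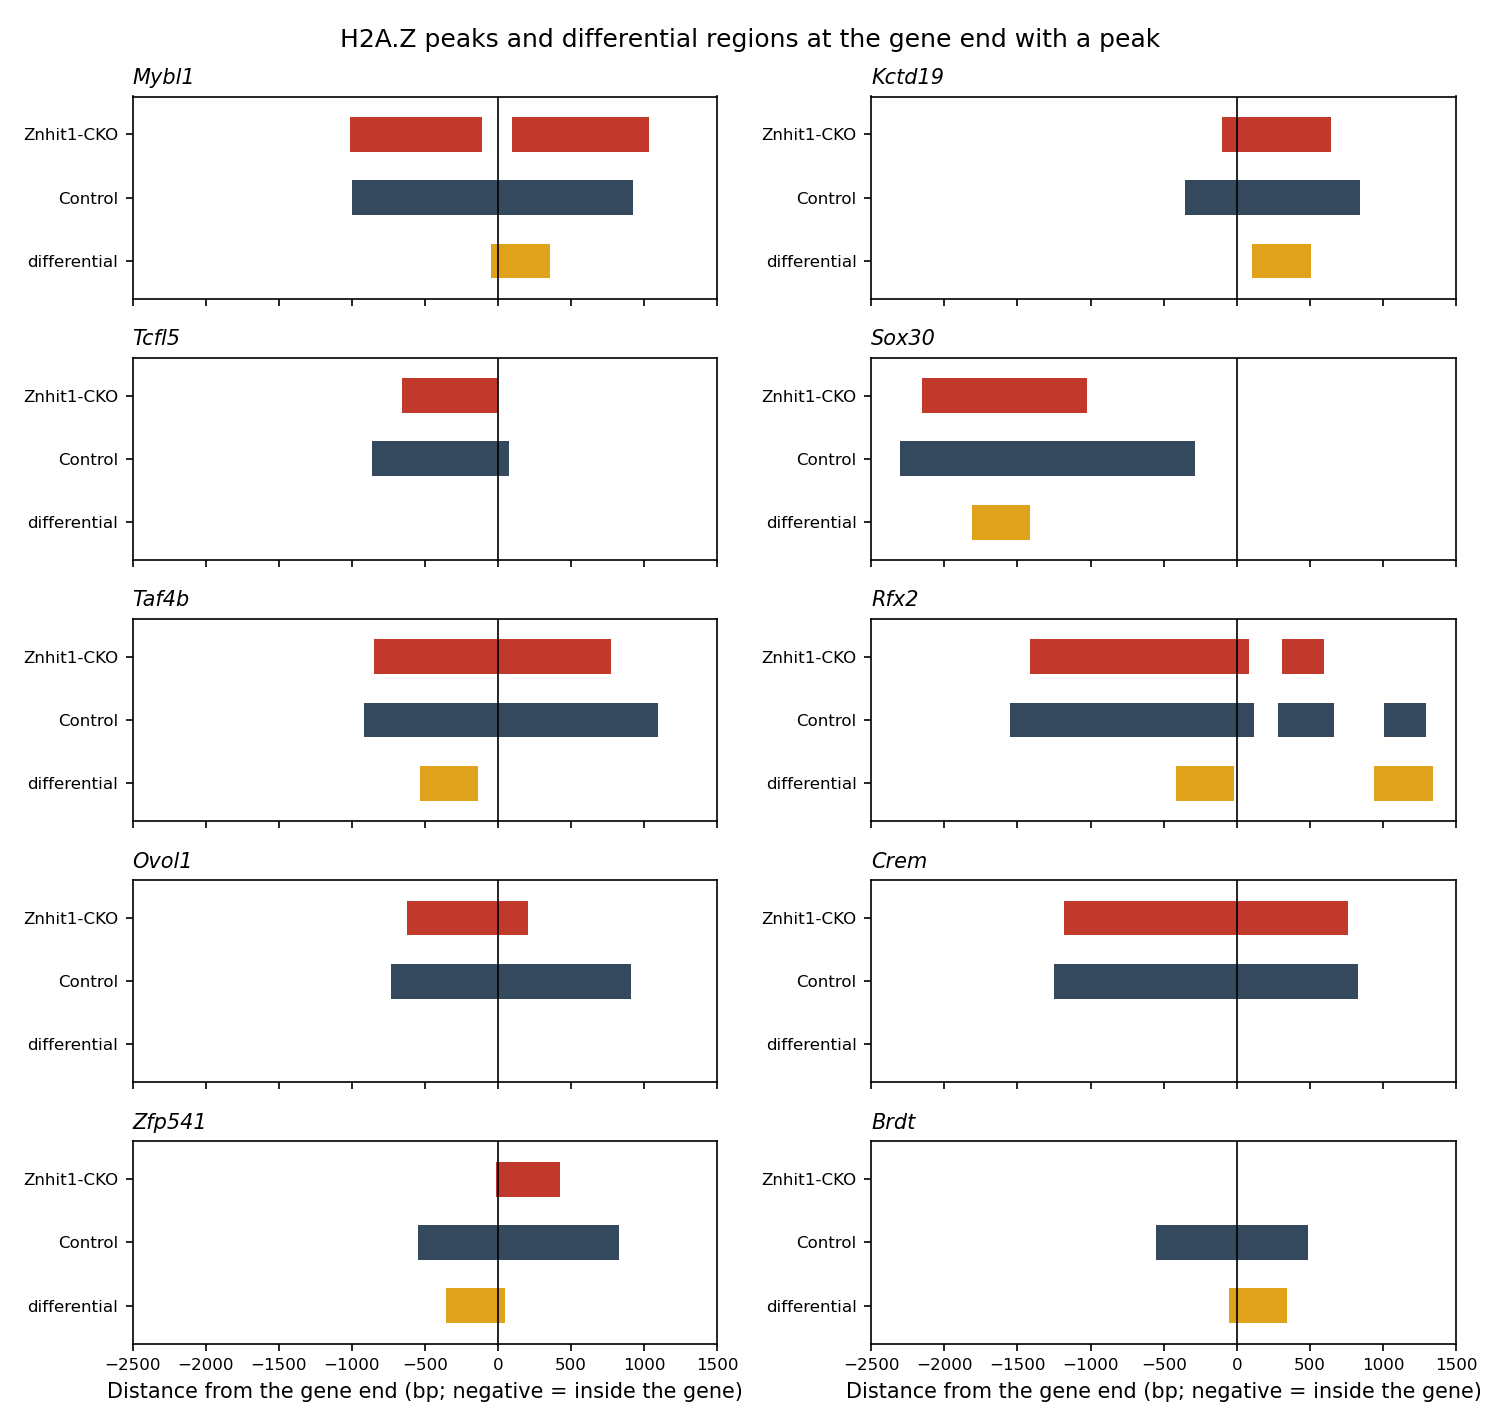
H2A.Z peaks of Znhit1-CKO testes (upper row of each panel), of Control testes (middle row) and differential regions (lower row) at the gene end that carried a peak, for the 10 regulators. The horizontal axis is the distance from that gene end in bp, negative inside the gene, with the end as a vertical line. Brdt has no Znhit1-CKO bar, Mybl1 has 2 with a gap of 208 bp over the gene end, and Crem has bars of 1945 and 2073 bp in Znhit1-CKO and Control testes.

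Brdt was the one regulator whose boundary peak was missing from the Znhit1-CKO list. The Control peak was 1041 bp wide (chromosome 5, 107330629 to 107331669, mm10) and spanned the RefSeq start of transcription, from 565 bp before it to 475 bp after it. A differential region of 400 bp lay on its upstream part, from 423 to 24 bp before the start. The 300 bases around the start, from 250 before it, lay wholly under the Control peak, with 227 of them in the differential region, and 0 lay under a Znhit1-CKO peak. They are shown with the same windows of Sox30, Rfx2 and Tcfl5, because these are the regulators whose RefSeq start fell on a Control peak. The sequences are RefSeq's for GRCm38.p6, read 5′ to 3′ along the gene, and capitals mark the bases under a Znhit1-CKO peak:
Brdt, chr5:107330944-107331243, plus strand: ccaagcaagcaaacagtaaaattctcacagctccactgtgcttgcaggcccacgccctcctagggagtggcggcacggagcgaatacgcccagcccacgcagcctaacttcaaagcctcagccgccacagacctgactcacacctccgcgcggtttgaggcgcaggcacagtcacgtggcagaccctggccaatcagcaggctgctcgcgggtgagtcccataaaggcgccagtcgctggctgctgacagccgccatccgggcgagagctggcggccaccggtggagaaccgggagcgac
Sox30, chr11:45980060-45980359, plus strand: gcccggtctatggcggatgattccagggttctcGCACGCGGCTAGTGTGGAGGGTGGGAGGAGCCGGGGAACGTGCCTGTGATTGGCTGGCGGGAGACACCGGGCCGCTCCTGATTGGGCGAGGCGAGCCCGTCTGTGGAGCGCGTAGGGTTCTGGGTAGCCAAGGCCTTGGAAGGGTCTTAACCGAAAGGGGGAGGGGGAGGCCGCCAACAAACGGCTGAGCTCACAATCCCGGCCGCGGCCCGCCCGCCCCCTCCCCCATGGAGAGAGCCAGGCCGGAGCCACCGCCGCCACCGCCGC
Rfx2, chr17:56830959-56831258, minus strand: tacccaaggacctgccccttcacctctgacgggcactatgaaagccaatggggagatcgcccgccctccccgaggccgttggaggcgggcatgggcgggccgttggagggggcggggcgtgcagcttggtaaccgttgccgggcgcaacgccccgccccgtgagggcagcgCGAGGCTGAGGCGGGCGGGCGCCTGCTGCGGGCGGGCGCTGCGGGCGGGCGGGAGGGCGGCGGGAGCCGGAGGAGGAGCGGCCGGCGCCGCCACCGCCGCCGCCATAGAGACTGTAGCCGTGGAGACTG
Tcfl5, chr2:180642642-180642941, minus strand: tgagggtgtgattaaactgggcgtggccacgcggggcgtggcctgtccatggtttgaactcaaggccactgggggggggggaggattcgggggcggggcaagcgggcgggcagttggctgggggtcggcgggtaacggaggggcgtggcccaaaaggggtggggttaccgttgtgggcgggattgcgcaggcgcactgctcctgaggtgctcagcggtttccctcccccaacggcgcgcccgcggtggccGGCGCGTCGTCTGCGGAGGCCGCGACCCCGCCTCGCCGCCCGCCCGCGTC
The Sox30 window kept most of its cover, with 267 bases under the Znhit1-CKO peak and 300 under the Control peak. The windows of Rfx2 and Tcfl5 were covered in part in both genotypes. At Rfx2 129 bases lay under the Znhit1-CKO peak and 170 under the Control peak. At Tcfl5 the numbers were 50 and 125, and the Znhit1-CKO peak ended on the first transcribed base, whereas the Control peak reached 75 bp upstream of it. All 4 windows were rich in G and C, at 64.7% in Brdt, 70.0% in Sox30, 75.7% in Rfx2 and 73.0% in Tcfl5. The median over all 32851 RefSeq windows, with or without a Control peak, was 52.7%. These 4 were picked for a start on a Control peak, so the comparison is not of like sets. The window of Zfp541, under no peak of either list, was at 44.7%.

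Brdt had a second peak that was in both lists. It lay inside the gene, 27789 bp downstream of the start, and was 1192 bp wide in Znhit1-CKO testes and 1302 bp in Control testes. The Znhit1-CKO peak covered 85.4% of the Control peak, and no differential region lay on it. The annotation used gives gene spans but no exons, and neighbouring genes were looked up for boundary peaks only. Over the span plus 1 kb, Znhit1-CKO peaks covered 1192 bp of Brdt and Control peaks 2343 bp (log2 ratio -0.97).

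The 2 activators at the top of the programme kept most of their boundary peak. At Mybl1 the Control list held a single peak of 1923 bp over the upper gene end (chromosome 1, 9699438 to 9701360). The Znhit1-CKO list held 2 peaks there, of 897 bp (9699429 to 9700325) and 940 bp (9700534 to 9701473). The gap between them was 208 bp, from 113 bp inside the gene end to 94 bp outside it. A differential region (9700392 to 9700791) covered 142 bp of the gap. The outer edges of the Znhit1-CKO pair lay 9 and 113 bp beyond those of the Control peak, so 89.2% of the Control length was still covered and the uncovered bases were those of the gap. Of the genes with a Znhit1-CKO peak on the Control boundary peak, 19.1% had 2 or more. The Tcfl5 boundary peak was 660 bp wide in Znhit1-CKO testes (chromosome 2, 180642032 to 180642691) and 936 bp in Control testes (180641831 to 180642766), where the widest boundary peak of each other regulator was wider. The Znhit1-CKO peak covered 70.5% of the Control peak. This share lay below the median of 78.6% over all genes with a Control boundary peak, and that of Mybl1 above it. At Tcfl5 the Znhit1-CKO peak was shorter by 201 bp inside the gene and by 75 bp outside it.

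Zfp541 and Kctd19 have products that work in 1 complex, and the zinc finger gene Ovol1 is needed for progress through pachytene. Their boundary peaks were shorter on both sides in Znhit1-CKO testes. The same held for all other regulators with an overlapping Znhit1-CKO peak except Mybl1. The Zfp541 peak was 433 bp wide in Znhit1-CKO testes (chromosome 7, 16061354 to 16061786) and 1377 bp in Control testes (16060947 to 16062323). At 31.4% of the Control length, this was the smallest share among the 9 regulators with an overlapping peak. The Znhit1-CKO peak was shorter by 407 bp outside the gene and by 537 bp inside it, and the differential region (16061730 to 16062129) lay on the inner part. RefSeq gives Zfp541 a start of transcription 10070 bp inside this gene end, and no peak of either list lay in the 300 bases around that start.

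The Kctd19 peak was 748 bp wide in Znhit1-CKO testes (chromosome 8, 105413399 to 105414146) and 1200 bp in Control testes (105413145 to 105414344), with 62.3% of the Control length covered. It carried a differential region, 107 to 506 bp outside the Kctd19 gene end. This gene end lies beside that of Lrrc36, which starts at 105413598, and the differential region lay within the Lrrc36 span. The peak thus cannot be given to 1 of the 2 genes. At Ovol1 the peak was 828 bp wide in Znhit1-CKO testes (chromosome 19, 5559951 to 5560778) and 1643 bp in Control testes (5559842 to 5561484). Of the difference, 706 bp lay outside the gene and 109 bp inside it. Ovol1 kept 50.4% of the Control length, and no differential region lay on the peak. The span of Ap5b1 overlaps that of Ovol1 by 326 bp at this end, so this peak too is shared by 2 genes.

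**Figure D2:**
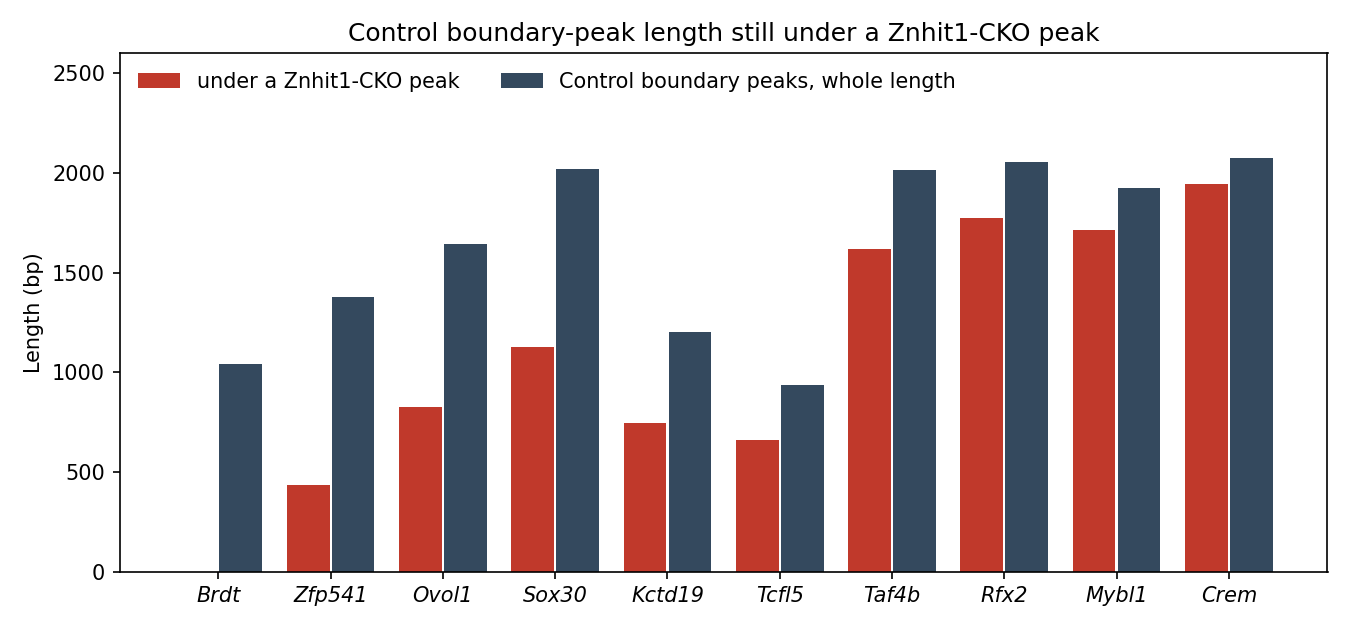
Length in bp of the Control boundary peaks of each regulator that lay under a Znhit1-CKO peak (left bar) and their whole length in Control testes (right bar), ordered by the ratio of the 2. The left bar is at 0 for Brdt, at 433 bp of 1377 bp for Zfp541 and at 1945 bp of 2073 bp for Crem.

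The regulators of spermatid genes ranged from Crem, with 93.8% of the Control boundary-peak length covered, to Sox30, with 55.9%. At Sox30, an HMG-box factor, the peak was 1127 bp wide in Znhit1-CKO testes (chromosome 11, 45980093 to 45981219) and 2017 bp in Control testes (45979354 to 45981370). The RefSeq start shown above lies 1241 bp inside the annotated gene end. Measured from that start, the Znhit1-CKO peak reached 217 bp upstream and the Control peak 956 bp upstream, while downstream they reached 909 and 1060 bp. The missing length was thus 739 bp upstream and 151 bp downstream. The differential region lay elsewhere, from 174 to 573 bp downstream of the start, where both lists have a peak.

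Rfx2, an RFX factor required for spermatid development, had 2 boundary peaks in each list. The wider was 1492 bp in Znhit1-CKO testes (chromosome 17, 56829596 to 56831087) and 1671 bp in Control testes (56829458 to 56831128). The narrower, upstream of the start, was 281 bp in Znhit1-CKO testes and 382 bp in Control testes. The gap between the 2 peaks held part of the window printed above and was 232 bp in Znhit1-CKO testes and 161 bp in Control testes. Together they kept 86.4% of the Control length. One differential region lay 19 to 418 bp downstream of the start, and another 940 to 1339 bp upstream. The upstream one lay over another Control peak of 289 bp, which began 1006 bp from the gene end, just outside the 1 kb window, and had no Znhit1-CKO peak.

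Crem, the gene of a cAMP-responsive activator and, from an internal promoter, of the ICER repressors, kept the largest share of the 10. Its boundary peak was 1945 bp wide in Znhit1-CKO testes (chromosome 18, 3336589 to 3338533) and 2073 bp in Control testes (3336526 to 3338598), shorter by 65 bp outside the gene and 63 bp inside it. That is 93.8% of the Control length. Crem was the only regulator whose covered length over the span plus 1 kb was not lower in Znhit1-CKO testes, with 3209 bp there and 3177 bp in Control testes (log2 ratio 0.01). The lncRNA gene Gm6225 overlaps the boundary peak. Taf4b encodes a gonad-enriched subunit of the general factor TFIID. Its peak was 1617 bp wide in Znhit1-CKO testes (chromosome 18, 14782431 to 14784047) and 2013 bp in Control testes (14782109 to 14784121). It was shorter by 322 bp outside the gene and 74 bp inside it, kept 80.3% and carried a differential region.

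Set in order, the share of Control boundary-peak length under a Znhit1-CKO peak ran from 0% at Brdt through Zfp541 (31.4%), Ovol1 (50.4%), Sox30 (55.9%), Kctd19 (62.3%), Tcfl5 (70.5%), Taf4b (80.3%), Rfx2 (86.4%) and Mybl1 (89.2%) to 93.8% at Crem. With 1 list per genotype, whether neighbours in this order differ beyond replicate error is unknown. The median of the 10 was 66.4%, and that of all 14815 genes was 78.6%. Among those genes, 13.8% kept a smaller share than Zfp541 and 20.5% a smaller share than Ovol1, while 83.9% kept a smaller share than Crem. Summed over the 10, 10846 of 16276 bp (66.6%) stayed covered, against 72.1% over all genes. The widest overlapping Znhit1-CKO peak was narrower than the widest Control peak at all 9 regulators that had one, and at 84.5% of genes. Covered length over the span plus 1 kb had a median log2 ratio of -0.71 for the 10 and -0.31 for all genes with peaks in both lists. It was lower in Znhit1-CKO testes at 9 of the 10 and at 84.8% of those genes.

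**Figure D3:**
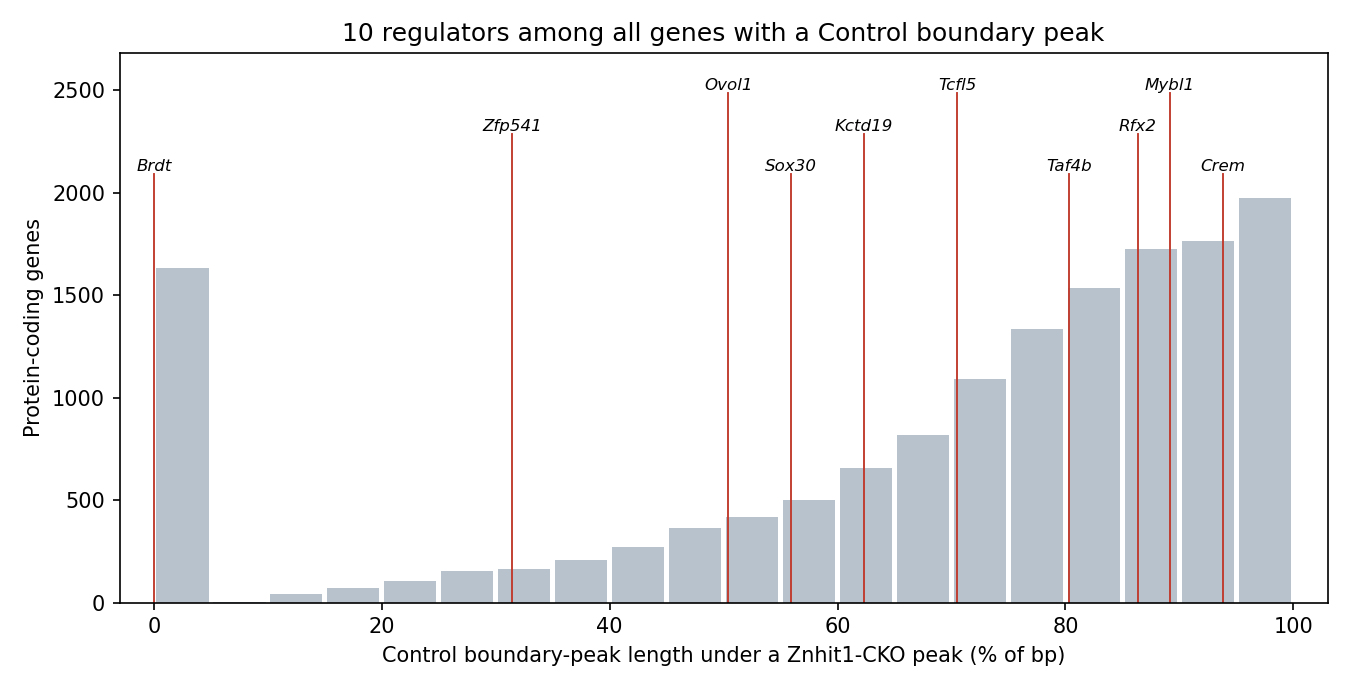
Number of protein-coding genes (vertical axis) by the share of their Control boundary-peak length that lay under a Znhit1-CKO peak (horizontal axis, percent of bp, bins of 5 points), over 14815 genes. Red lines mark the 10 regulators, which run from 0% at Brdt to 93.8% at Crem, with 6 of the 10 below the median of all genes (78.6%).

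The width of the Control peak moved with loss across all genes, and the regulators were spread over the range of widths. Genes were put in 4 groups of about equal size by Control width. In the narrowest, from 205 to 1106 bp, 37.4% of genes had no overlapping Znhit1-CKO peak and the median share kept was 49.8%. Brdt (1041 bp) and Tcfl5 (936 bp) fell there. Of the pair only Brdt was lost, and Tcfl5 lay above the group's median. In the other groups the lost share was 4.39%, 1.51% and 0.703%, from narrower to wider. Zfp541 and Kctd19 lay in the second group, where the median share kept was 81.8%, above both of theirs. Ovol1 and Rfx2 lay in the third (83.7%), with Ovol1 below and Rfx2 above that median. Mybl1, Taf4b, Sox30 and Crem lay in the widest (80.3%), where Sox30 alone was below the median. The regulators' median Control width was 1657 bp, against 1429 bp over all genes. The part of peak width in the differences between regulators was not tested.

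Regulators with and without a differential region both varied widely in the length kept. The 7 regulators with a region on the boundary peak kept a median of 62.3%, and Tcfl5, Ovol1 and Crem, without one, kept 70.5%. Over all genes the medians were 78.2% with a region and 79.4% without. Ovol1 and Mybl1 show both sides: Ovol1 kept 50.4% with no region, and Mybl1 kept 89.2% with one. In all, 8715 genes (58.8%) shared the state of having a region and a kept peak. The state of Tcfl5, Ovol1 and Crem, kept without a region, held 4471 genes (30.2%). That of Brdt, lost with a region, held 1032 genes (6.97%).

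Peaks could be shorter on the side that faces out of the gene or on the side that faces into it. Of the 7 regulators with 1 peak in each list at 1 end, 4 were shorter by more on the outward side (Taf4b, Ovol1, Sox30 and, by 2 bp, Crem) and 3 on the inward side (Tcfl5, Zfp541 and Kctd19). At Sox30 both sides of the peak lay within the annotated gene span. The outward bases missing at Ovol1, Crem and Kctd19 lay within the spans of Ap5b1, Gm6225 and Lrrc36. Outward thus means outside the regulator and not outside every gene. Over 9544 genes of the same layout, 50.7% were shorter by more on the outward side. The median difference over the 7 was 322 bp on the outward and 151 bp on the inward side, and over all such genes it was 86.0 and 81.0 bp.

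Away from the gene ends, 5 of the regulators held 6 further Control peaks, and 3 of these overlapped a Znhit1-CKO peak, against 38.9% of such peaks in all protein-coding genes. The 3 without one were narrow, at 209 bp in Kctd19 and at 329 and 251 bp in Rfx2. The 251 bp peak of Rfx2 (chromosome 17, 56818277 to 56818527) was the only one of the 6 with a differential region, against 46.4% of such peaks. The inner peak of Sox30 was 559 bp wide in Znhit1-CKO testes (chromosome 11, 45991691 to 45992249) and 1039 bp in Control testes (45991528 to 45992566). That of Crem was wider in Znhit1-CKO testes, at 1264 bp (chromosome 18, 3280827 to 3282090) against 1104 bp (3280514 to 3281617) in Control testes. It lay 14160 bp from the lower gene end, and the Znhit1-CKO peak reached further on its upper side. No Znhit1-CKO peak of the regulators was without a Control peak (0 of 14), against 11.7% in gene spans overall. Of all 17 Control peaks in the spans plus 1 kb, 13 (76.5%) overlapped a Znhit1-CKO peak, against 62.8% overall.

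**Figure D4:**
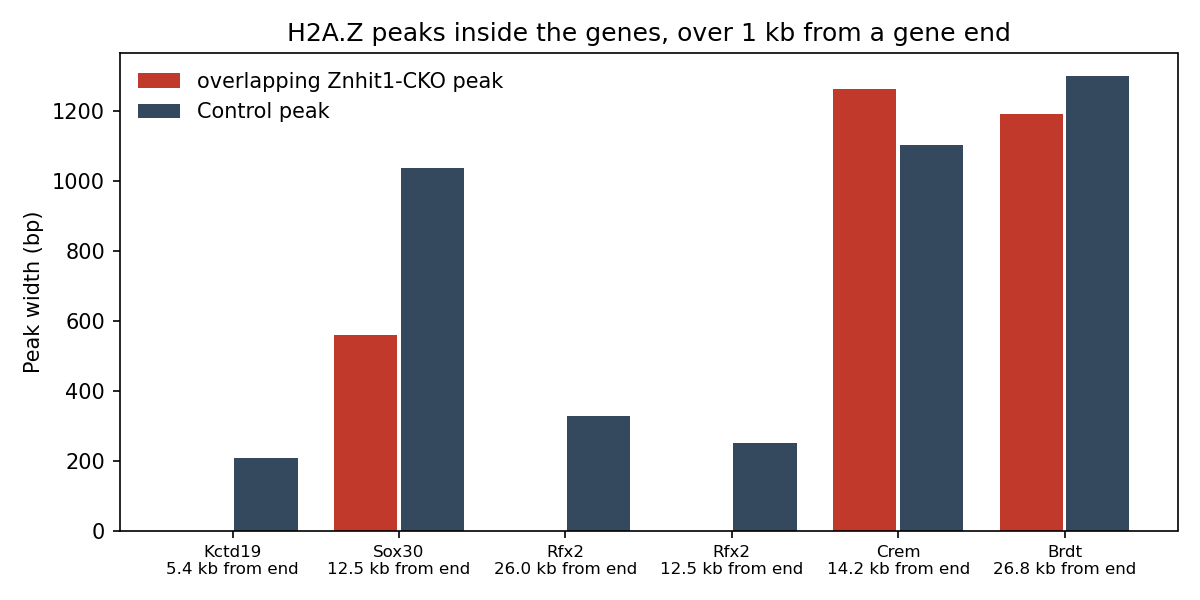
Width in bp of the 6 Control peaks that lay inside the regulators and over 1 kb from a gene end (right bars) and of the overlapping Znhit1-CKO peak (left bars). Labels give the distance to the nearer gene end. The narrow peaks of Kctd19 and Rfx2 have no left bar, and Crem has the only left bar above its right one, at 1264 and 1104 bp.

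Genes related to the regulators were read from 3 lists, of paralogues, partners and targets. Of 17 paralogues (other members of the regulators' families), 13 had a Control boundary peak, against 67.6% of all protein-coding genes. Of the 13, 1 was lost and 9 had a differential region on the peak, against 11.0% and 65.8% of all genes with a Control boundary peak. Rfx4, an RFX factor known from the brain, was lost, with a widest Control peak of 555 bp. Trerf1 (2576 bp, 70.7% covered), Taf4 (2442 bp, 77.6%) and Ovol2 (2416 bp, 44.0%) were kept, where the width is that of the widest Control boundary peak and the share is of all boundary-peak length of the gene. The paralogues kept a median of 85.6% of the Control length. The other 4 paralogues, Brd3, Rfx1, Rfx3 and Rfx5, have annotated ends away from their RefSeq start, and each had a Control peak within 1 kb of that start. They were named after their values were seen. Of all protein-coding genes without a Control boundary peak and with a start given, 10.8% had a Control peak there.

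Of 9 partners, 7 had a Control boundary peak, of which 2 were lost and 5 had a differential region (67.6%, 11.0% and 65.8% over all genes). Btbd18, which promotes transcription of pachytene piRNA precursors, lost a peak of 878 bp, and Gtf2a1l, a testis form of a TFIIA subunit, lost peaks of at most 463 bp. Hdac2, a deacetylase found with ZFP541 and KCTD19, kept 87.0% of 2033 bp. Tbpl1, a TBP-related factor needed in spermatids, kept 89.9% of 1867 bp, and Taf12, a TFIID subunit that pairs with TAF4 proteins, 76.0% of 1668 bp.

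Of 22 targets and late genes, 10 had a Control boundary peak, of which 4 were lost and 6 had a differential region, beside the same 67.6%, 11.0% and 65.8% over all genes. Tnp1, the gene of a transition protein that replaces histones, lost a peak of 769 bp, Piwil1, the gene of a PIWI protein that binds pachytene piRNAs, one of 706 bp, and Odf1, the gene of an outer dense fibre protein of the tail, one of 646 bp. Hspa2, a heat-shock gene of spermatocytes, kept 93.7% of 3015 bp. Ddx25, an RNA helicase gene, kept 57.7% of 1997 bp, and Cdc25c, a cell cycle phosphatase gene, 81.6% of 1596 bp. The median Control width was 894.5 bp for the targets and 1657 bp for the regulators. Of the 12 targets without a boundary peak, 9 have a RefSeq start, and 2 of those, Ccna1 and Meig1, had a Control peak there. These lists hold few genes, and differences between them and the regulators were not tested.

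**Figure D5:**
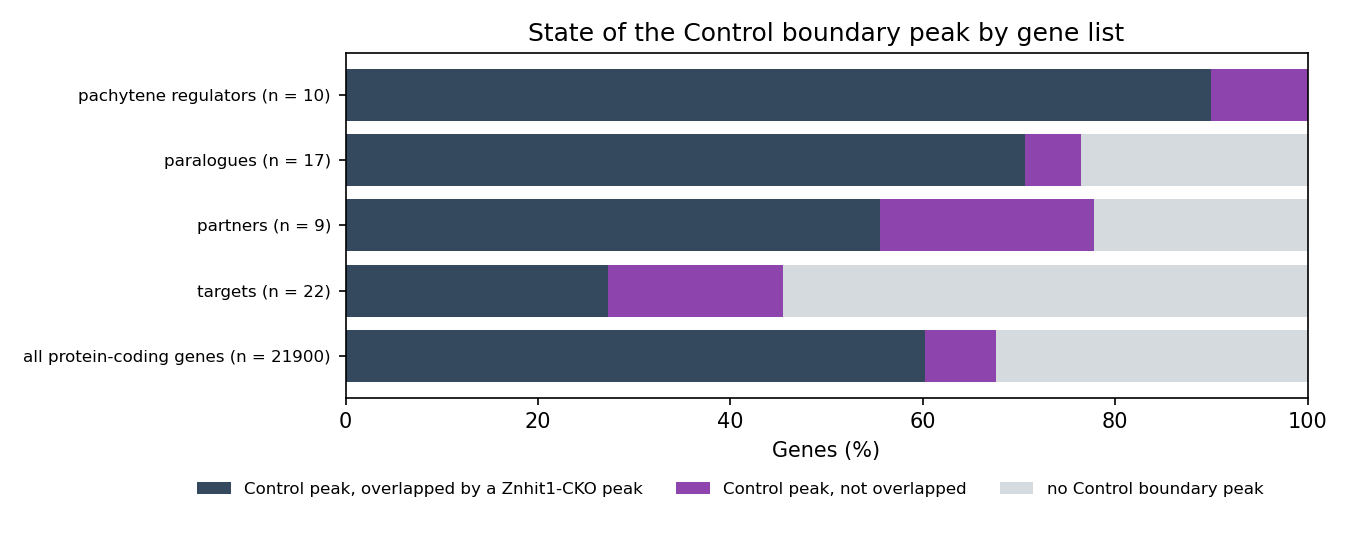
Share of genes (horizontal axis, percent) whose Control boundary peak overlapped a Znhit1-CKO peak (dark), did not (purple), or that had no Control boundary peak (grey), for the 10 regulators, their paralogues, partners and targets, and all protein-coding genes. The purple share is 1 of 10 genes for the regulators and 4 of 22 for the targets, and the grey share runs from 0 of 10 to 12 of 22.

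The promoter windows given by RefSeq were searched on both strands for short motifs of the regulators' own families. Windows were given for 5 of the 10, the 4 printed above and Zfp541. The E-box CACGTG lay in the Brdt window, from 78 to 73 bp before the start, in bases covered by the Control peak and by no Znhit1-CKO peak. It occurred in 7.15% of all RefSeq windows. CACGCG, a related E-box, lay in Sox30 and Tcfl5, and in 9.27% of all. In Sox30 its bases were under the peaks of both lists, and in Tcfl5 under neither. The RFX half-site GTTGCC lay in Rfx2 itself, 116 to 111 bp before the start (12.5% of all windows), and its bases too lay under the Control peak and under no Znhit1-CKO peak. The OVO motif CCGTTA lay in Tcfl5 (2.76%). The MYB motif AACNGTC (8.01% of all windows), the CRE TGACGTCA (1.79%) and the SOX motif ACAATGG (3.66%) were in none of the 5. This holds for these exact letters only. Shorter or other forms of the families' sites were not searched, so their absence from the windows is not shown. A match of letters is not a bound site, and none of the matches found overlaps another in these windows.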

How the data were processed

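Per the submitters' processing notes, the build was mm10 and the tools included MACS2 2.2.4, BWA 0.7.17, Picard 2.20.7, SAMtools 1.9 and cutadapt 2.5. The authors deposited 3 lists of regions, with starts and ends in bp and no score, fold or p-value. Neither the peak threshold, nor whether replicates were pooled, nor the threshold and sign of a differential region is given in the sources used. The labels' protocol names 2 independent biological replicates.

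Starts were counted from 1. Gene spans came from RefSeq for GRCm38.p6 (primary coordinates as in mm10), which run over all RefSeq transcripts of a gene. A boundary peak touched the 1 kb on either side of a gene end. Overlap meant at least 1 bp. The 10 genes, the lists and the motifs were chosen with earlier results of these data known. The share of Control boundary length kept, the width groups, the side comparison and the RefSeq starts for genes of the lists were added after the values were seen. Of each list, up to 3 lost and 3 kept genes with the widest Control peak were named, beside all 10 regulators and the protein-coding genes that share a boundary peak with one.

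Overlap counts were tested on simulated regions and checked against bedtools 2.31.1 (0 of 48752 Control peaks differed). RefSeq promoter windows on opposite strands matched in all 1843 pairs that overlapped by at least 50 bases. The software was matplotlib 3.10.9, pandas 2.3.3, numpy 2.4.6 and scipy 1.17.1 under Python 3.11.15. Alternatives were windows of 500 and 2000 bp, peaks of at least 500 bp, RefSeq starts only, an overlap of 50% of both peaks and a gap of 500 bp.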

Additional observations from a re-analysis of the deposited data

How the results depend on the processing

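No paired analysis was possible because each genotype has a single peak list without values for its replicates, which also means that no replicate could be left out. All 10 regulators had a Control peak with windows of 500 and 2000 bp and with peaks of at least 500 bp. The count without a Znhit1-CKO peak in the window, 2 (Sox30 and Brdt), was 1 (Brdt) with a 2000 bp window and 1 by overlap with the Control boundary peak. It was 3 with peaks of at least 500 bp, where the Zfp541 peak of 433 bp drops out by its width. At the RefSeq starts of the 5 genes that have one, 4 had a Control peak, 1 had no Znhit1-CKO peak, and a differential region was present at 3; fewer genes enter. The share of Control peaks overlapped (76.5%) was 64.7% with a required overlap of 50% of both peaks and 84.6% for peaks of at least 500 bp. The median log2 ratio of covered length (-0.71) was -0.38 in the 1 kb windows alone, where Sox30 and Brdt have no Znhit1-CKO bases. It was -0.50 with peaks of at least 500 bp, and both values rest on fewer genes. Shares over all genes are given above for the main setting, for overlap with the Control boundary peak and for RefSeq starts. None is given for the other alternatives, so the values of the regulators there have no like background. Narrow peaks, such as those of 209 to 329 bp inside Kctd19 and Rfx2, may be less certain than wide ones. The lists hold no score, so how near they lie to the unknown calling threshold cannot be read.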
